A study of Mus musculus with 24 samples.

Results

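The 10 genes described here are the cell cycle inhibitors Cdkn2a, Cdkn2b, Cdkn2c, Cdkn1a and Cdkn1b, the tumour suppressors Trp53 and Rb1, the p53 ubiquitin ligase Mdm2 and the D-type cyclins Ccnd1 and Ccnd2. They are 10 of 22380 protein-coding genes of the GENCODE M1 annotation, and they were selected by name with their levels in CCE cells and fetal head already known. Levels between these tissues are therefore given as a description with no test. CCE is a mouse embryonic stem cell line of strain 129/SvEv, differentiated with 0.266 µM retinoic acid for 5 days after LIF was withdrawn, and 14.5 dpc fetal head (FH) was taken from strain FVB/N. Neither tissue carries an engineered allele according to the labels, and strain, culture and embryonic tissue differ together between the groups, so their parts cannot be told apart. Total RNA was depleted of ribosomal RNA with the RiboMinus kit (4 CCE and 3 FH cDNA preparations, each sequenced at 2 locations, giving 8 CCE and 6 FH libraries) or with the Ribo-Zero kit (1 library per tissue). Both Ribo-Zero libraries were made from hydrolysed RNA, whereas the RiboMinus preparations were fragmented by RNA hydrolysis or by shearing of cDNA. The FH2 preparation had 2 rounds of depletion and all others 1. Both fragmentation methods were applied to the same depleted RNA (CCE1, CCE2 and FH1 by their labels), so the 7 preparations stand for 4 depletions, although the numbers of hydrolysed preparations may be crossed between the sequencing locations. The CCE preparations are technical replicates and nothing states separate animals for FH, so the spread between preparations may be technical.

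Cyclin-dependent kinases with D-type cyclins phosphorylate the retinoblastoma protein and release E2F factors, which switch on genes for DNA replication. The INK4 proteins (from Cdkn2a, Cdkn2b and Cdkn2c) block the cyclin D kinases, and the CIP/KIP proteins p21 (Cdkn1a) and p27 (Cdkn1b) bind a wider range of cyclin-kinase complexes. Cdkn2a also makes Arf, which holds back Mdm2 and so stabilises p53, and p53 in turn activates Cdkn1a and Mdm2. Silencing of the Cdkn2a and Cdkn2b locus by Polycomb proteins is a known feature of stem cells and embryos, and its activation is a mark of prolonged culture and senescence.

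Cdkn2a codes for Ink4a and Arf by splicing either of its first exons to the same second exon in different reading frames. The joins are shown because the tags on the first exons are the values that separate these proteins. Both are read from mm9 on the minus strand, 30 bases on each side, with exon 2 (chr4:88922860-88922889) in capitals. The last 30 bases of exon 1α are chr4:88927890-88927919 and those of exon 1β are chr4:88940238-88940267. The first base of exon 2 falls at codon position 1 in Ink4a, after 126 coding bases, and at codon position 2 in Arf, after 190.
Ink4a join: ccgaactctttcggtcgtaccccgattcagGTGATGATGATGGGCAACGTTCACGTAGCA
Arf join: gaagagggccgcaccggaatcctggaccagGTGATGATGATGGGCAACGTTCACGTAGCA

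The 3 promoters of the locus are shown because its transcripts were high together in CCE cells. Each is the 250 bases before the RefSeq start in GRCm38.p6 on the minus strand, with CG dinucleotides in capitals. The Arf promoter lies at chr4:89294620-89294869, the Ink4a promoter at chr4:89282193-89282442 and the Cdkn2b promoter at chr4:89311033-89311282.
Arf promoter: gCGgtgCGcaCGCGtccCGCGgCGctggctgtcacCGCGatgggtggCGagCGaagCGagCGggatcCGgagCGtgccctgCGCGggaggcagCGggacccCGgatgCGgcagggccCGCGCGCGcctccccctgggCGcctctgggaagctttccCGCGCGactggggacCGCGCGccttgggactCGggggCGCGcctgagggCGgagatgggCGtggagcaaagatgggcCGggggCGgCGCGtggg
Ink4a promoter: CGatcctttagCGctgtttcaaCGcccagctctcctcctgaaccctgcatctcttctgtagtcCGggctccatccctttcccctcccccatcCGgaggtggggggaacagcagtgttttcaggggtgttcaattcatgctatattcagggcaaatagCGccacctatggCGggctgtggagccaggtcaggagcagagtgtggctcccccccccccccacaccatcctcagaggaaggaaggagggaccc
Cdkn2b promoter: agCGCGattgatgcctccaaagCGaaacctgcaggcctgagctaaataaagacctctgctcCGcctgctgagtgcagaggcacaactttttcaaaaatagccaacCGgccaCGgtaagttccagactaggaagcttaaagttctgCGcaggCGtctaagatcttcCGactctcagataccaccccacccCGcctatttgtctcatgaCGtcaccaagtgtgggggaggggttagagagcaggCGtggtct
The Arf promoter was 78.4% GC with 40 CG dinucleotides, against 60.0% and 7 for Ink4a and 53.6% and 12 for Cdkn2b. Over all 32851 RefSeq promoters, counted in windows of 300 bases that add 50 bases after the start, the median was 52.7% GC with 7 CG dinucleotides. The Arf window held more CG dinucleotides than 98.1% of them.

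Levels are given as RPKM, the tags whose midpoint lay in the merged exons of a gene, per kilobase of exon and per 1000000 uniquely mapped non-mitochondrial tags. For a single exon, an intron or the gap between genes RPKM is the same density over that region. The RiboMinus libraries held 920424 to 2473448 such tags each, and the Ribo-Zero libraries 26345467 (CCE) and 46226046 (FH). Values for a preparation sum both sequencing locations. By its tag composition, the study describes a fetal head library with a single round of depletion as a probable technical outlier. By the order of the study's lanes this is FH1 hydrolysed at Vienna-IMP. Without that library the ratios of CCE over FH below moved by less than the spread between preparations, the largest move being that of Cdkn2b from 86.7 to 119, and the bound for Cdkn2a became 449-fold. Ranges in brackets after a ratio are exact 95% intervals that cover counting error only. Tags carried no strand, and tags across splice junctions were not mapped.

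Cdkn2a (chr4:88920377-88940557, minus strand, mm9) was at 231 RPKM in CCE1 sheared, 113.5 in CCE1 hydrolysed, 156 in CCE2 sheared and 107 in CCE2 hydrolysed, and had no exon tag in any of the 3 FH preparations. It was therefore high in every CCE preparation, with a mean of 152 ± 57.3 (SD, n = 4), and undetected in FH, and the sheared preparations were the higher ones. In RiboMinus libraries 2252 CCE tags stood against 0 in FH, and in Ribo-Zero libraries 696 against 0. A count of 0 allows up to 0.258 RPKM in the pooled FH RiboMinus libraries and 0.0555 RPKM in the FH Ribo-Zero library, taking 3 tags as the floor. Set against that floor over the pooled group, Cdkn2a was at least 571-fold higher in CCE with RiboMinus and at least 407-fold higher with Ribo-Zero. The FH Ribo-Zero library held 3 tags in Cdkn2a introns.

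Cdkn2b (chr4:88952198-88956941, minus strand), the gene of p15Ink4b next to Cdkn2a, was at 115 and 72.7 RPKM in the sheared and hydrolysed CCE1 preparations and at 101 and 71.0 in those of CCE2. In FH it was at 0.760 RPKM in FH1 sheared, 1.55 in FH1 hydrolysed and 0.664 in FH2 hydrolysed, from 14 tags in all. The groups did not overlap, with means of 89.9 ± 21.6 (SD, n = 4) and 0.9902 ± 0.484 (SD, n = 3). The pooled ratio of CCE over FH was 86.7 (51.5 to 159) with RiboMinus and 45.3 (29.9 to 72.1) with Ribo-Zero, where the levels were 16.2 and 0.357 RPKM. In bulk RNA, fewer cells that express a gene and less of its RNA per cell cannot be told apart, here and for every gene below.

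Across all genes tested, meaning genes with a mean above 3 RPKM in at least 1 tissue, every CCE preparation lay above every FH preparation for 35.8% and below for 20.3%. Among the 10 genes here, 7 lay above (Cdkn2a, Cdkn2b, Cdkn1a, Trp53, Mdm2, Ccnd1 and Ccnd2), 1 lay below (Cdkn2c) and 2 overlapped (Cdkn1b and Rb1). These counts describe genes chosen on this contrast, and nothing is read from the difference between them and the shares over all genes. Rb1 was the 1 gene of the 10 under the filter on low values.

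**Figure D1:**
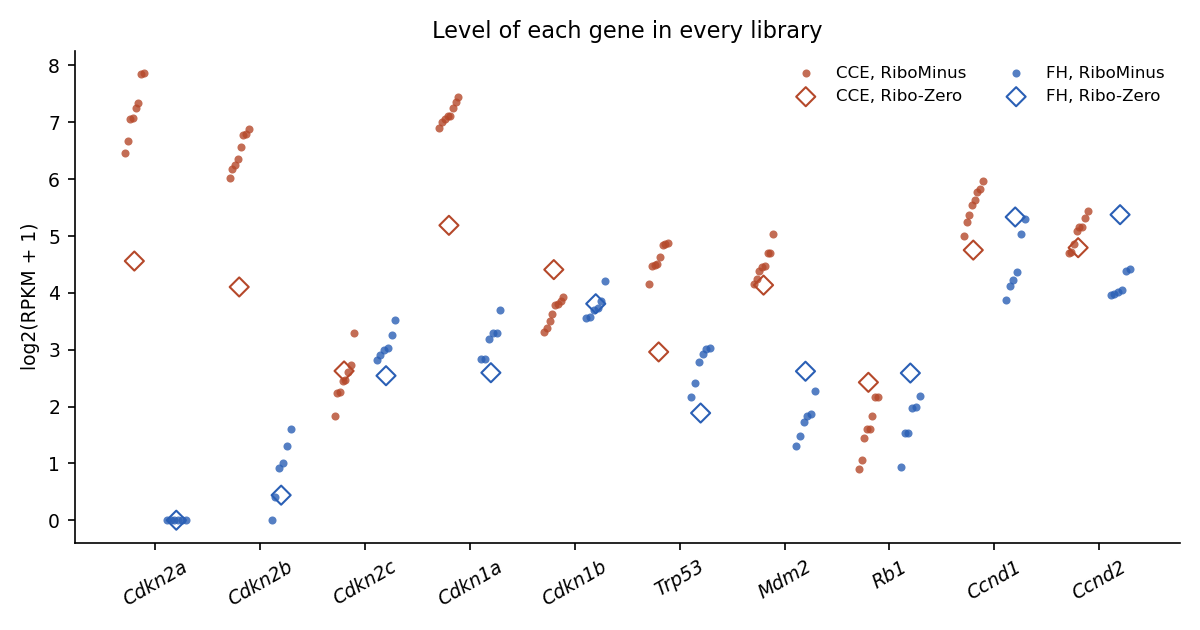
Level of each of the 10 genes as log2(RPKM + 1), with 1 point for each of the 8 CCE and 6 FH RiboMinus libraries, in order of value within a tissue, and an open diamond for the Ribo-Zero library of that tissue. Cdkn2a lies between 86.7 and 232 RPKM in the CCE RiboMinus libraries and at 0 in every FH library, whereas the libraries of Cdkn1b, Rb1, Cdkn2c and Ccnd1 overlap between tissues.

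The tags over the Cdkn2a exons were uneven. Pooled over the CCE RiboMinus libraries, exon 1β, the first exon of Arf, held 154 tags or 36.9 RPKM, and exon 1α, the first exon of Ink4a, held 314 tags or 116. Exon 2, which both transcripts share, held 1472 tags or 331 RPKM, and exon 3 held 312 or 79.2. The shared second exon was thus the densest part of the gene, and in the preparations it ranged from 206.5 to 576 RPKM. The 36-base words of these exons all occur once in mm9, so no part of an exon was closed to unique tags of that length by an exact copy elsewhere. The deposited Nijmegen positions span 1 base less than those of Vienna-IMP, and shorter words were not searched. Near copies within the 2 mismatches that the mapping allowed were not searched, and exon edges lack the tags across splice junctions.

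The density of exon 1β over that of exon 1α was 0.260 in CCE1 sheared, 0.353 in CCE1 hydrolysed, 0.386 in CCE2 sheared and 0.290 in CCE2 hydrolysed. Exon 1α was the denser first exon in 4 of 4 RiboMinus preparations, by 3.15-fold (2.59 to 3.85) over the pooled tags. The mean log2 ratio of 1β over 1α was -1.65 ± 0.26 (SD, n = 4). It is given with no test, because tags per exon were known when the genes were chosen. Also, 4 preparations cannot take an exact two-sided sign-flip permutation test below p = 0.13. At Vienna-IMP exons 1β and 1α were at 46.75 and 89.84 RPKM in CCE1 hydrolysed and at 25.81 and 149.6 in CCE2 hydrolysed. At Nijmegen they were at 22.64 and 133.6 in CCE1 hydrolysed and at 29.4 and 55.54 in CCE2 hydrolysed. The hydrolysed numbers may be crossed between locations, so this SD may understate the spread between preparations. In the Ribo-Zero library the order was the other way, with 161 tags on exon 1β and 52 on exon 1α, a density ratio of 2.00 (1.46 to 2.79). With 1 Ribo-Zero library this difference between kits was not tested, and the intervals do not cover the spread between preparations or cultures. With tags at repeated positions counted once the ratios were 0.377 with RiboMinus and 1.73 with Ribo-Zero.

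The change of order came from unequal shifts of the exons between kits. In CCE the density with RiboMinus over that with Ribo-Zero was 1.93 (1.54 to 2.42) for exon 1β, 12.2 (9.07 to 16.7) for exon 1α, 7.82 (6.98 to 8.78) for exon 2 and 6.12 (4.88 to 7.72) for exon 3. Exon 1β moved least and exon 1α most. Their GC contents were close to each other, at 63.8% for exon 1β and 65.2% for exon 1α, with 62.5% for exon 2 and 48.0% for exon 3. The Ribo-Zero RNA came from another biological replicate of the cells and was sequenced with longer tags at another place, so kit, culture and sequencing cannot be told apart. The pooled RiboMinus tags also include sheared libraries, whereas the Ribo-Zero library was hydrolysed, so these ratios mix fragmentation methods as well. Exon 2 was at 227 and 206.5 RPKM in CCE1 and CCE2 hydrolysed, at 576 and 367.5 in CCE1 and CCE2 sheared, and at 42.3 with Ribo-Zero.

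**Figure D2:**
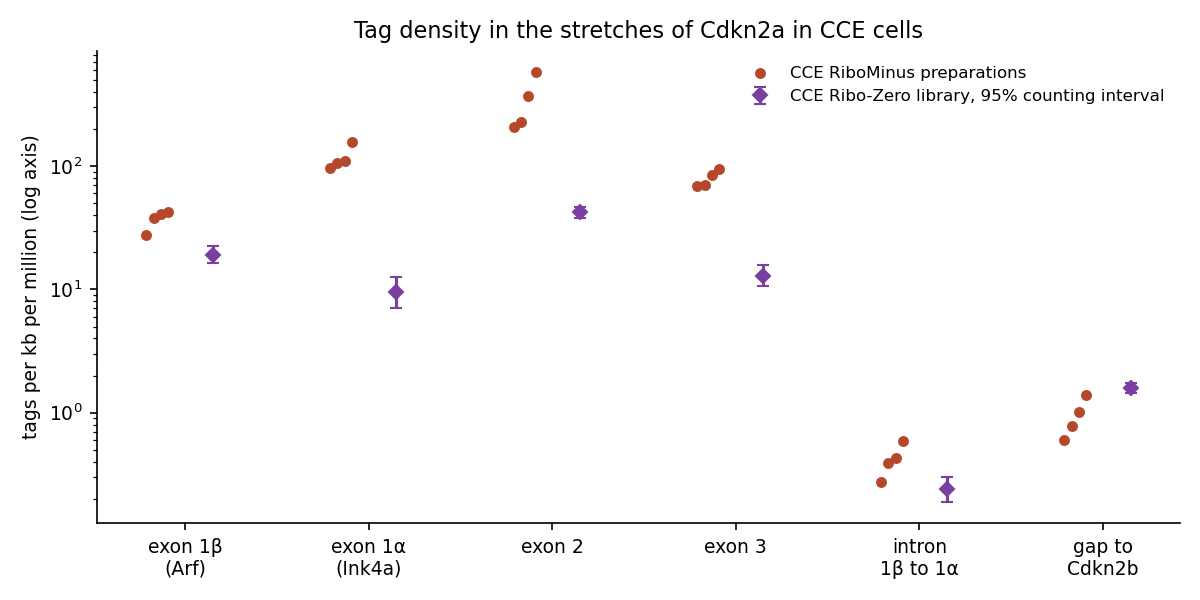
Tag density (tags per kilobase per 1000000 tags, the RPKM of the text) on a logarithmic axis for the exons of Cdkn2a, its first intron and the gap to Cdkn2b in CCE, with 1 point for each of the 4 RiboMinus preparations and a diamond with the 95% counting interval for the Ribo-Zero library. Exon 1α lies above exon 1β in the RiboMinus preparations and below it in the Ribo-Zero library, at 9.54 against 19.1.

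The gap of 11640 bases between the Cdkn2b and Cdkn2a gene models (chr4:88940558-88952197) is intergenic in the annotation. In CCE it held 148 RiboMinus tags and 488 Ribo-Zero tags, which are 0.974 (0.824 to 1.15) and 1.59 (1.45 to 1.74) RPKM. Over the 4 CCE preparations the density was 0.949 ± 0.346 (SD, n = 4), from 0.603 to 1.40. FH had 6 and 35 tags there, so CCE was 18.8-fold (8.42 to 52.0) higher with RiboMinus and 24.5-fold (17.4 to 35.5) higher with Ribo-Zero. Without the 1 kb next to each gene, 89 RiboMinus and 398 Ribo-Zero tags remained in CCE. The gap was lower with RiboMinus than with Ribo-Zero, at a ratio of 0.612 (0.506 to 0.737), whereas the exons on either side were higher with RiboMinus, at 1.93 for exon 1β and 5.71 (5.10 to 6.41) for exon 2 of Cdkn2b. The intron of Cdkn2b lay between them at 1.02 (0.700 to 1.47). These ratios pool both fragmentation methods with RiboMinus. The gap was at 1.01 and 1.40 RPKM in CCE1 and CCE2 hydrolysed and at 0.777 and 0.603 in CCE1 and CCE2 sheared.

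**Figure D3:**
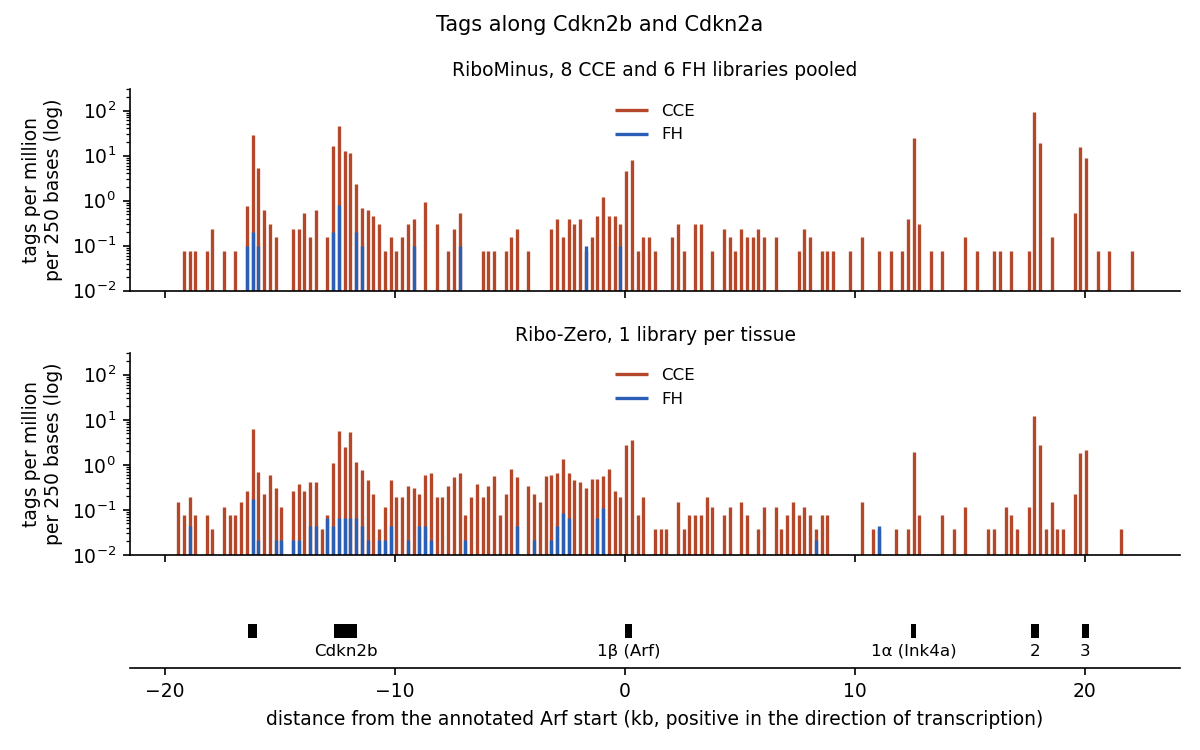
Tags per 1000000 tags on a logarithmic axis in bins of 250 bases along Cdkn2b and Cdkn2a for CCE and FH, against the distance from the Arf start in kilobases, for pooled RiboMinus libraries and for the Ribo-Zero library of each tissue, with black boxes for exons. CCE tags pile up on the exons and run at a low level through the gap, at a mean of 0.974 RPKM with RiboMinus and 1.59 with Ribo-Zero, while FH has no tag on a Cdkn2a exon.

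Cdkn2c (chr4:109333481-109339794, minus strand), the gene of p18Ink4c, was not higher in CCE with RiboMinus. It was at 5.98, 4.48, 4.82 and 3.21 RPKM in CCE1 sheared, CCE1 hydrolysed, CCE2 sheared and CCE2 hydrolysed, and at 8.48, 6.72 and 7.75 in FH1 sheared, FH1 hydrolysed and FH2 hydrolysed. It was lower in every CCE preparation, with a pooled ratio of 0.608 (0.491 to 0.753). The Ribo-Zero libraries gave 5.17 RPKM in CCE and 4.82 in FH, a ratio of 1.07 (0.939 to 1.22) whose interval includes equal levels. Most of its RiboMinus exon tags fell in the 5′ untranslated region, 137 of 160 in CCE and 156 of 200 in FH, which is also the longest of its annotated parts at 1806 of 2686 bases.

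Cdkn1a (chr17:29227924-29237667, plus strand), which codes for p21, was at 147, 153.5, 130 and 142 RPKM in CCE1 sheared, CCE1 hydrolysed, CCE2 sheared and CCE2 hydrolysed. In FH it was at 8.81, 7.03 and 9.05 RPKM in FH1 sheared, FH1 hydrolysed and FH2 hydrolysed. The groups lay far apart and the preparations within each were close, at 143 ± 9.93 (SD, n = 4) and 8.30 ± 1.11 (SD, n = 3). The pooled ratio was 17.5 (15.1 to 20.4) with RiboMinus and 7.03 (6.38 to 7.76) with Ribo-Zero, where CCE was at 35.5 and FH at 5.04 RPKM.

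Cdkn1b (chr6:134870419-134875531, plus strand), which codes for p27, was nearly level between the tissues. The CCE preparations lay from 10.9 to 13.2 RPKM and those of FH from 11.6 to 14.8, so the groups overlapped, and the pooled ratio was 0.929 (0.830 to 1.04). With Ribo-Zero it was at 20.2 RPKM in CCE and 13.01 in FH, a ratio of 1.56 (1.47 to 1.64). Its 3′ untranslated region of 3442 bases was sparsely covered with RiboMinus, at 0.033 (CCE) and 0.040 (FH) of the coding density, and at 0.194 and 0.223 with Ribo-Zero. Over coding exons alone the ratio of CCE over FH was 1.06 (0.908 to 1.23) with RiboMinus and 1.64 (1.49 to 1.80) with Ribo-Zero.

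Trp53 (chr11:69393861-69405375, plus strand), which codes for p53, was at 19.7, 26.6, 21.5 and 27.7 RPKM in CCE1 sheared, CCE1 hydrolysed, CCE2 sheared and CCE2 hydrolysed. In FH it was at 4.71, 5.93 and 6.81 RPKM in FH1 sheared, FH1 hydrolysed and FH2 hydrolysed. All CCE preparations were above all FH preparations, and the pooled ratio was 3.99 (3.48 to 4.59). With Ribo-Zero the levels were 6.78 and 2.70 RPKM, a ratio of 2.52 (2.24 to 2.83). Only 74.0% of the 36-base words of its coding exons occur once in mm9, against 90.1% over all its merged exons, so part of the gene was closed to unique tags and its level is understated in both tissues. The level also depended on the exon parts counted. Over its coding exons, 1222 of 4045 exon bases, the pooled RiboMinus density was 44.8 RPKM in CCE and 9.48 in FH, against 24.3 and 6.08 over merged exons. Introns took 12.0% of the RiboMinus tags in the gene in CCE and 33.0% in FH.

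Mdm2 (chr10:117125944-117147814, minus strand) was at 20.7, 25.2, 17.4 and 24.96 RPKM in CCE1 sheared, CCE1 hydrolysed, CCE2 sheared and CCE2 hydrolysed, and at 2.61, 2.97 and 1.64 in FH1 sheared, FH1 hydrolysed and FH2 hydrolysed. The groups did not overlap, and the pooled ratio was 9.67 (8.01 to 11.8). The Ribo-Zero ratio was smaller, 3.22 (3.00 to 3.46), with 16.6 RPKM in CCE and 5.15 in FH. Most of this gap lay in FH, where the RiboMinus level was 0.452 (0.370 to 0.546) of the Ribo-Zero level, against 1.36 (1.27 to 1.45) in CCE. In FH over 55% of the tags in the gene were intronic with either kit, 56.5% and 55.9%.

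Stretches near the starts of these genes with the letters of a p53 site are shown because Cdkn1a and Mdm2, targets of p53, were high beside Trp53. A p53 half-site, the 10-base element that the p53 protein binds in pairs, was searched on both strands, and it occurs in 8.36% of the 32851 RefSeq promoters. Among the 10 genes, promoters of 7 were in the RefSeq table (none for Rb1, Ccnd1 or Ccnd2). A half-site was found in the promoters of Mdm2 and Trp53 and in 1 of the 2 promoters of Cdkn1a. The other Cdkn1a promoter, at chr17:29093519-29093818, held none. The windows are GRCm38.p6, with 20 bases on each side of the half-sites, which are in capitals. They lie at chr17:29090886-29090957 (plus strand) for Cdkn1a and chr10:117710915-117710964 (minus strand) for Mdm2, and the window of Ccng1, a p53 target named below, lies at chr11:40755442-40755491 (minus strand).
Cdkn1a: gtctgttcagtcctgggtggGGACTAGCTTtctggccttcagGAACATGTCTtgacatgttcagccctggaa
Mdm2: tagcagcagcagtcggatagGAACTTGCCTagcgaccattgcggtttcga
Ccng1: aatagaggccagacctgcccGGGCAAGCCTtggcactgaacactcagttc
The Cdkn1a window held 2 half-sites and the others 1 each. A match to these letters is a description of the sequence and does not show binding.

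The pathway lists were chosen with earlier results of these data known, so their counts describe this contrast and are no independent support. The other p53 target genes were tested across the 7 preparations with limma on log2(RPKM + 1), with p-values adjusted over all 10305 genes tested. On that scale fold changes of low genes are understated. Here and for the lists below, the fit takes the 7 preparations as independent, although some share depleted RNA. Its p-values may therefore measure technical spread, and they do not cover the spread between cultures or animals. Of 26 listed target genes, 23 were tested, and 22 were higher in CCE and 1 lower, where 34.8% of all genes tested were higher and 20.0% lower. The median log2 difference of the list was 2.29, against 0.34 over all genes. Ccng1, which codes for cyclin G1, was at 118 ± 27.8 RPKM in CCE (SD, n = 4) and 5.69 ± 1.42 in FH (SD, n = 3), a log2 difference of 4.14 (SE 0.25, limma adjusted p = 2.74e-06). Eda2r, a receptor of the TNF receptor family, was at 24.2 and 0.346 RPKM (log2 difference 4.17, limma adjusted p = 6.27e-06). Phlda3, an inhibitor of Akt signalling, was at 148 and 12.2 RPKM (3.47, limma adjusted p = 8.13e-05).

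All 22 targets that rose were also higher in the CCE Ribo-Zero library than in that of FH. Such agreement was common. Over all genes tested, every CCE preparation lay above every FH preparation for 35.8% and below for 20.3%. The Ribo-Zero pair went the other way in such genes for only 3.35% of all genes tested, so nothing is read from this count. Sesn1, which codes for a stress-induced sestrin, was the 1 target that fell, at 1.45 and 3.02 RPKM (log2 difference -0.71, limma adjusted p = 0.0031), and with Ribo-Zero it was at 11.4 and 9.66 RPKM. Without the FH1 hydrolysed preparation Sesn1 was below the filter and no target was called lower. Among the 22 targets that rose, 17 had promoters in the RefSeq table, and 7 of these genes, with 8 of 21 promoters (38.1%, beside 8.36% of all promoters), held a p53 half-site. The list was drawn up from known targets of p53, so this share describes it and supports nothing.

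Of 12 regulators and relatives of p53, 9 were tested, and in the limma fit 2 were higher in CCE, where 34.8% of all genes were, and none lower. The checkpoint kinase gene Chek2 rose by 0.82 on the log2 scale (SE 0.19, limma adjusted p = 0.00601) and Ppm1d, a phosphatase that acts on p53, by 0.79 (SE 0.22, limma adjusted p = 0.015). Neither call held when levels were scaled by exon tags, at limma adjusted p = 0.0556 and 0.152. Under that scaling none of 11 tested was higher and 1 was lower, the p53 relative Trp63 (log2 difference -2.21, limma adjusted p = 4.99e-06). Scaled by all unique tags, Trp63 was at 0.00998 RPKM in CCE and 2.01 in FH and was under the filter. The count depended on the fit, since 4 of the 9 were called higher without CCE2 sheared and 5 with fragmentation as a covariate.

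Scaling by exon tags in place of all unique tags lowers the pooled ratios of CCE over FH, because exons took 69.3% of the RiboMinus tags in CCE and 53.8% in FH. The shift was -0.36 on the log2 scale with RiboMinus and -0.58 with Ribo-Zero. Differences in log2(RPKM + 1) of genes near 0 in FH can still rise, as that of Eda2r did from 4.17 to 4.41. Of 10305 genes tested, 3582 were higher and 2060 lower in CCE, and with exon scaling, where the filter let 11976 genes pass, 2269 were higher and 3356 lower. Among the 7 of the 10 genes that lay above FH in every CCE preparation, Ccnd2 had the smallest ratio left, a pooled log2 ratio of 0.58. The p53 target list kept 22 genes higher and 1 lower under this scaling.

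Rb1 (chr14:73583480-73725629, minus strand) was low in both tissues, from 1.28 to 2.92 RPKM in CCE and from 1.41 to 3.18 in FH, and the groups overlapped. The pooled ratio was 0.877 (0.701 to 1.10) with RiboMinus and 0.872 (0.795 to 0.956) with Ribo-Zero. In RiboMinus libraries of a single fragmentation method it was 1.02 (0.792 to 1.31) when hydrolysed and 0.996 (0.556 to 1.88) when sheared. The pooled RiboMinus value lay below both of these, and both intervals include the Ribo-Zero value. Over coding exons alone the pooled ratio was 0.624 (0.451 to 0.860) with RiboMinus and 0.650 (0.566 to 0.745) with Ribo-Zero. Introns, which span 136135 bases, took 70.0% of its RiboMinus tags in CCE and 80.5% in FH. Exons of Rb1 share 896 bases with Rcbtb2 and Lpar6, and tags there cannot be assigned without strand.

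Ccnd1 (chr7:152115836-152125774, minus strand), which codes for cyclin D1, was at 58.1, 38.2, 50.99 and 37.5 RPKM in CCE1 sheared, CCE1 hydrolysed, CCE2 sheared and CCE2 hydrolysed. In FH it was at 34.9, 16.9 and 16.7 RPKM in FH1 sheared, FH1 hydrolysed and FH2 hydrolysed. Every CCE preparation lay above every FH preparation, with FH1 sheared the nearest, and the pooled ratio was 2.23 (2.06 to 2.42). The Ribo-Zero libraries gave the opposite order, 26.0 RPKM in CCE and 39.4 in FH, a ratio of 0.660 (0.630 to 0.690). Exons of Ccnd1 share 818 bases with Oraov1.

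Ccnd2 (chr6:127075797-127101066, minus strand), which codes for cyclin D2, behaved alike. It was at 30.4, 37.2, 25.2 and 37.3 RPKM in CCE1 sheared, CCE1 hydrolysed, CCE2 sheared and CCE2 hydrolysed, and at 15.1, 17.9 and 17.7 in FH1 sheared, FH1 hydrolysed and FH2 hydrolysed. The pooled ratio was 1.92 (1.78 to 2.07), and that of the Ribo-Zero libraries was 0.661 (0.637 to 0.685), from 26.8 and 40.5 RPKM. Ccnd1, Ccnd2 and Cdkn2c were the 3 of the 10 genes whose groups did not overlap and whose Ribo-Zero pair had the other order, as had 3.35% of all genes tested. For Cdkn2c the Ribo-Zero interval included equal levels, and for the cyclins it did not.

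Values that bear on the cyclin reversal are the use of exons, the scaling and the use of repeated positions. Over coding exons the Ribo-Zero ratios were 0.756 (0.694 to 0.824) for Ccnd1 and 0.769 (0.710 to 0.832) for Ccnd2, still below 1. In the FH Ribo-Zero library 38.7% of the Ccnd1 tags and 37.8% of the Ccnd2 tags were at distinct positions, against 57.5% and 56.3% in CCE. Scaled by exon tags the Ribo-Zero ratios were 0.443 for both genes. With each position counted once they became 1.15 for both genes. That counting also raised the Ribo-Zero ratios of Rb1 (0.872 to 1.11), Cdkn2c (1.07 to 1.41) and Cdkn1b (1.56 to 1.90). It lowered those of Cdkn2a, Cdkn2b and Cdkn1a, and left Trp53 and Mdm2 nearly unchanged. In deep libraries such counting also removes independent tags, and the part of repeated positions in the reversal was not tested.

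Of 12 other CDK inhibitors, kinases and cyclins of G1, 11 were tested, and 6 rose and none fell in the limma fit, beside 34.8% and 20.0% of all genes. The 6 were kinases, cyclins and a phosphatase. Among the inhibitors, chosen for mention after their values were seen, Cdkn1c was at 235 RPKM in CCE and 291 in FH (limma adjusted p = 0.571), Cdkn3 at 7.27 and 3.76 (limma adjusted p = 0.0569), and Cdkn2d had no tag in any RiboMinus preparation, with 0.119 RPKM in the CCE and 0.034 in the FH Ribo-Zero library. Ccne1, which codes for cyclin E1, rose by 1.71 on the log2 scale (SE 0.18, limma adjusted p = 6.68e-05), Cdk6 by 1.48 (SE 0.17, limma adjusted p = 0.000122) and the phosphatase gene Cdc25a by 1.46 (SE 0.18, limma adjusted p = 0.000142). All 6 were also higher in the CCE Ribo-Zero library, and as for the p53 targets nothing is read from this count. Of the RB and E2F family, 8 of 12 were tested, and 4 rose and 1 fell, against the same shares of all genes. E2f4 was at 96.9 RPKM in CCE and 28.1 in FH (log2 difference 1.75, limma adjusted p = 3.9e-05), Tfdp1, a dimer partner of E2F proteins, and E2f5 rose by 1.13 and 1.06, and E2f2 fell by 1.25 to 1.78 RPKM in CCE from 5.59 in FH. Proliferation markers rose in 6 of 9 tested with none lower, again beside 34.8% and 20.0%, among them the replication helicase genes Mcm5 (log2 difference 2.06, limma adjusted p = 3.88e-05) and Mcm2 (1.89, limma adjusted p = 0.000312). Scaled by exon tags, 5 of 11 G1 genes and 5 of 10 proliferation markers were higher with none lower. Of the RB and E2F family 3 of 9 were higher and 1 lower, beside the counts of all genes under that scaling given above. With fragmentation as a covariate the G1 count was larger.

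Known regulators of the Ink4a-Arf locus rose in 6 of 15 tested, with none lower, beside 34.8% of all genes higher and 20.0% lower. Their median log2 difference was 0.40, close to the 0.34 of all genes. Cbx7, a Polycomb protein known to repress this locus, was at 81.0 ± 5.63 RPKM in CCE (SD, n = 4) and 2.14 ± 0.537 in FH (SD, n = 3), a log2 difference of 4.72 (SE 0.18, limma adjusted p = 3.57e-07). Hmga2, a chromatin protein of stem cells that lowers Ink4a and Arf, was at 21.8 and 2.31 RPKM (2.79, limma adjusted p = 3.19e-06). Id1, an antagonist of helix-loop-helix factors, was at 314 and 74.4 RPKM (1.99, limma adjusted p = 0.000955). Of further repressors of the locus, chosen for mention after their values were seen, the T-box genes Tbx3 (1.96, limma adjusted p = 9.95e-05) and Tbx2 (1.48, limma adjusted p = 0.00876) rose, and the Polycomb genes Ezh2 (-0.23, limma adjusted p = 0.493) and Cbx8 (-0.29, limma adjusted p = 0.286) did not pass. The sixth gene called, Ets1, an activator of Ink4a, rose by 1.14 (limma adjusted p = 0.00099) and was the 1 of the 6 that was not higher in the CCE Ribo-Zero library, at 6.13 RPKM against 6.43 in FH.

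Over the 5 lists of pathway genes, 40 of 66 tested genes were higher in CCE and 2 lower, with a median log2 difference of 1.14, beside 34.8% of all genes higher and 20.0% lower. Under scaling by exon tags 36 of 70 were higher and 3 lower, where 2269 of 11976 genes were higher and 3356 lower. The p53 targets contributed 22 of the 40.

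**Figure D4:**
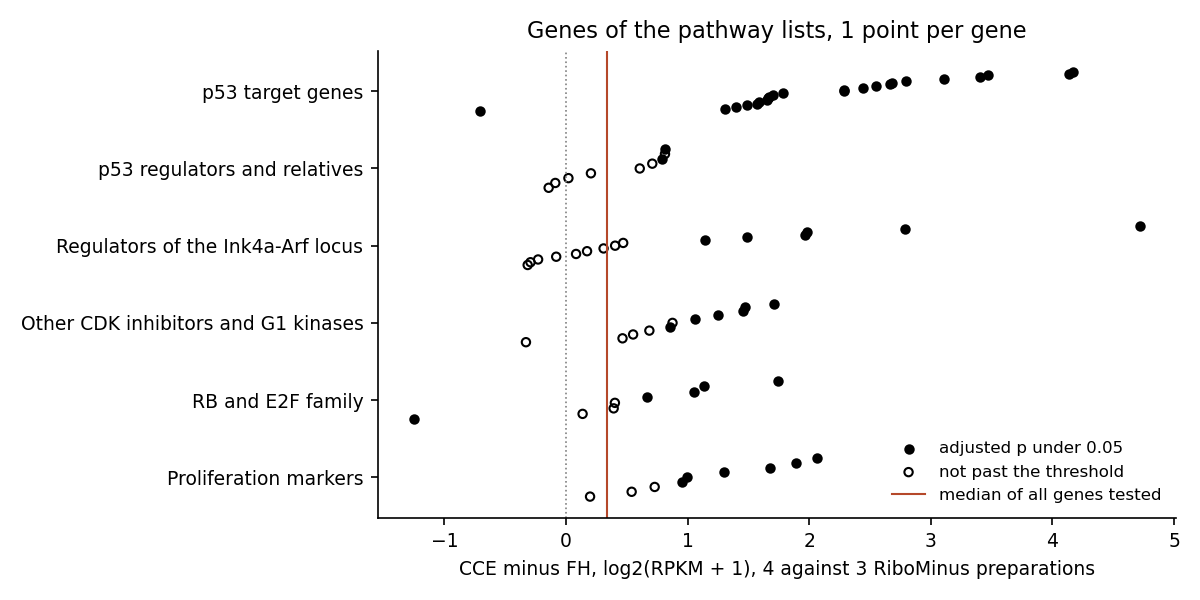
Difference of CCE minus FH in log2(RPKM + 1) over 4 against 3 RiboMinus preparations, with 1 point per tested gene of each list, filled where the limma adjusted p was under 0.05, and a line at the median of all genes tested. Of the 23 p53 targets 22 lie to the right of that line at 0.34, and Sesn1 lies at -0.71.

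Markers of other cells moved with the tissue contrast. The 4 pluripotency markers summed to 28.3 to 73.8 RPKM over the CCE RiboMinus libraries and to at most 0.209 in FH, where Pou5f1, Zfp42 and Dppa5a were at 0. The 8 primitive endoderm markers summed to 190.5 to 420 in CCE and 51.9 to 101 in FH, where Gata4 was at 0 with RiboMinus. The 6 neural markers were the other way, at 16.5 to 30.3 in CCE and 157 to 462 in FH. The 6 markers of smooth muscle and fibroblasts summed to 2862 to 3672 in the CCE RiboMinus libraries, but to 365 in the CCE Ribo-Zero library, against 286 to 678 and 416 in FH. In that CCE Ribo-Zero library the pluripotency markers summed to 109 and the primitive endoderm markers to 486, above every CCE RiboMinus library, and the neural markers to 11.9, below every one. The smooth muscle and fibroblast sum of the RiboMinus libraries rested on Tagln (1392 RPKM over the CCE preparations), Acta2 (895) and Vim (784), while the collagen genes Col1a1 (12.8 RPKM in CCE, 124.1 in FH) and Col1a2 (1.39 and 44.3) were lower in CCE. The part of any of these cells in the levels of the 10 genes was not tested.

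The CCE libraries of the kits thus differed in these sums, and levels of the 10 genes were compared between the kits as well. In CCE, RiboMinus over Ribo-Zero was 6.53 (6.00 to 7.12) for Cdkn2a, 5.42 (4.93 to 5.97) for Cdkn2b, 4.07 (3.86 to 4.29) for Cdkn1a and 3.57 (3.26 to 3.92) for Trp53. These 4 genes were over 2-fold higher with RiboMinus, as were 25.0% of genes tested. Mdm2, Ccnd1, Ccnd2, Cdkn2c and Cdkn1b lay within 2-fold, from 0.573 for Cdkn1b to 1.74 for Ccnd1. These are ratios over merged exons. Over coding exons Cdkn1b was at 54.3 RPKM with RiboMinus and 57.5 with Ribo-Zero, and Ccnd1 at 94.2 and 32.6. Rb1 was at 0.504, just inside that range, and 13.6% of genes were over 2-fold lower. All these ratios and shares pool sheared and hydrolysed RiboMinus libraries, whereas the Ribo-Zero libraries were hydrolysed. In the hydrolysed CCE RiboMinus libraries alone Cdkn2a was at 110.3 RPKM and Rb1 at 2.82, against 22.6 and 4.37 with Ribo-Zero.

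In FH the ratios were in part different. Cdkn2b at 2.84 (1.35 to 5.75) and Trp53 at 2.26 (1.93 to 2.63) were over 2-fold higher with RiboMinus, beside 33.4% of genes tested, and Mdm2 at 0.452 and Ccnd2 at 0.426 (0.399 to 0.455) were over 2-fold lower, beside 8.81%. Over coding exons alone, Ccnd2 was at 41.5 RPKM with RiboMinus and 51.1 with Ribo-Zero, against 10.8 and 38.7 in its 3′ untranslated region. The coding density of Ccnd1 was 41.1 and 43.1. That of Mdm2 stayed lower with RiboMinus, at 3.57 and 9.70. Cdkn1a was at 1.64 (1.37 to 1.94) and Cdkn2a had no exon tag with either kit. In the hydrolysed FH RiboMinus libraries alone Ccnd1 was at 16.8 RPKM over merged exons, over 2-fold below the 39.4 with Ribo-Zero. The order of the genes by level over merged exons also changed. In the CCE preparations Cdkn2a and Cdkn1a led at 152 and 143 RPKM, Cdkn2b followed at 89.9, then Ccnd1 (46.2), Ccnd2 (32.5), Trp53 (23.9) and Mdm2 (22.1), before Cdkn1b (11.6), Cdkn2c (4.62) and Rb1 (2.11). The ranges of Cdkn2a overlapped those of Cdkn1a and Cdkn2b, and the ranges of Ccnd2, Trp53 and Mdm2 overlapped one another. In the CCE Ribo-Zero library Cdkn1a led at 35.5, and Ccnd2 (26.8) and Ccnd1 (26.0) stood above Cdkn2a (22.6). These orders depend on the parts of a gene that are counted. Over coding exons alone, Cdkn1b at 57.5 RPKM stood above Cdkn1a (45.4) in that library, and Ccnd1 (32.6) was level with Cdkn2a (32.4). In the pooled CCE RiboMinus libraries the coding density of Cdkn1b, 54.3, was above those of Mdm2 (47.3) and Trp53 (44.8).

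**Figure D5:**
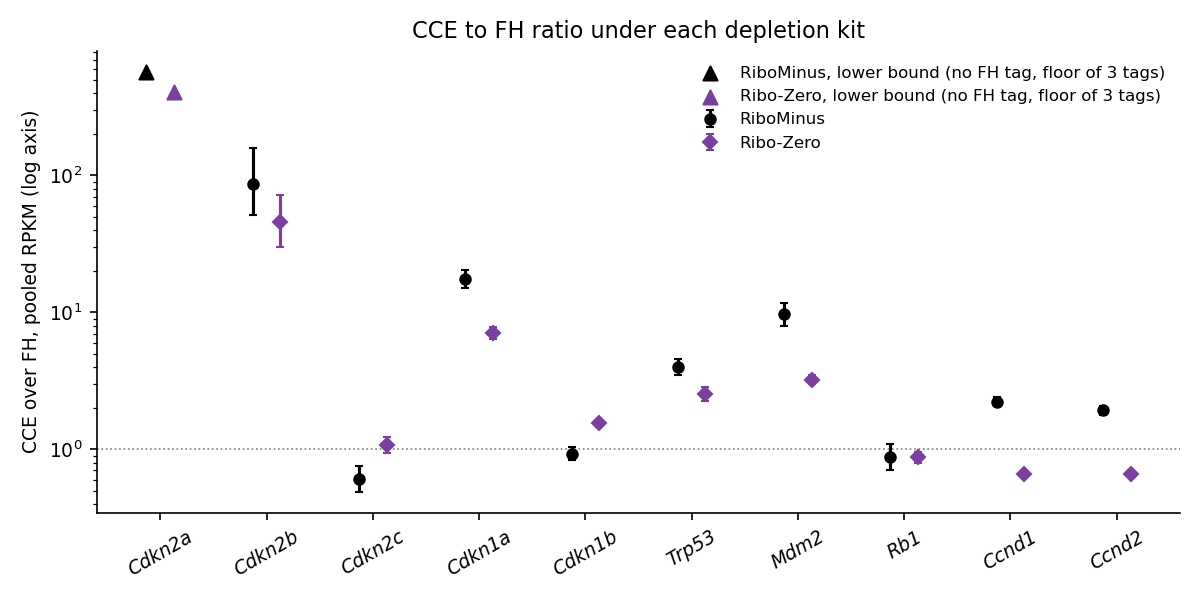
Ratio of CCE over FH in pooled RPKM on a logarithmic axis for each of the 10 genes with RiboMinus (circles) and Ribo-Zero (diamonds), with 95% counting intervals, and triangles for the lower bounds of Cdkn2a. Ccnd1 and Ccnd2 lie above 1 with RiboMinus, at 2.23 and 1.92, and below 1 with Ribo-Zero, at 0.660 and 0.661.

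Fragmentation was a contrast that did not enter the choice of the genes. Sheared minus hydrolysed preparations, with tissue in the limma fit, gave calls for 3 of 9 genes tested, where 20.3% of all genes were higher and 25.7% lower in sheared preparations. Ccnd1 was higher in sheared ones by 0.71 on the log2 scale (SE 0.13, limma adjusted p = 0.00285), from 54.7 against 37.85 RPKM in CCE and 34.9 against 16.8 in FH. Trp53 was lower by -0.38 (SE 0.11, limma adjusted p = 0.0224), and Ccnd2 by -0.34 (SE 0.12, limma adjusted p = 0.0395). The Ccnd1 call held with any 1 preparation left out, and was lost at Vienna-IMP alone (0.52, limma adjusted p = 0.0926). With the depleted RNA as a block, paired by the labelled numbers, Ccnd1 kept its call (0.68, limma adjusted p = 0.0152), and Trp53 (-0.35, limma adjusted p = 0.107) and Ccnd2 (-0.35, limma adjusted p = 0.106) lost theirs at nearly the same size. With the hydrolysed numbers crossed at Nijmegen in that block, none of the 3 passed, and Ccnd1 was at 0.71 (limma adjusted p = 0.0973). With repeated positions counted once, Trp53 shrank to -0.09 and Ccnd2 to -0.12 (limma adjusted p = 0.527 and 0.455). Without FH1 hydrolysed of Vienna-IMP neither passed (limma adjusted p = 0.191 and 0.174). The Trp53 call was also lost without CCE1 hydrolysed, CCE2 hydrolysed, FH1 sheared or FH2 hydrolysed (limma adjusted p from 0.0633 to 0.0872), and the Ccnd2 call without any of 6 preparations, all but CCE1 sheared (limma adjusted p from 0.0661 to 0.13).

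For Cdkn2a the difference was 0.47 (SE 0.19, limma adjusted p = 0.0707), with CCE libraries from 151.5 to 232 RPKM when sheared and from 86.7 to 134.5 when hydrolysed. FH, at 0 under both methods, enters this fit and lowers the value, so neither it nor the 0.78 without FH1 sheared (limma adjusted p = 0.0276) is read as a test of both tissues. The same holds for Cdkn2b (0.26), which was near 0 in FH and lay from 93.2 to 117 RPKM in sheared and from 63.8 to 80.5 in hydrolysed CCE libraries, so 7 of the 9 genes were measured in both tissues. Cdkn2c (0.33), Cdkn1b (0.18), Mdm2 (-0.17) and Cdkn1a (-0.01) did not pass, at limma adjusted p from 0.0972 to 0.966. Whether fragmentation effects differed between tissues could hardly be tested, since the sheared arm of FH is 1 preparation: the limma interaction fit called 0.0776% of all genes and none of the 9, which does not show equal effects. At an unadjusted p under 0.05 there were 2, Cdkn2a and Cdkn2b, which passed the filter only through CCE and were at or near 0 in FH, so nothing is read from them. For Ccnd1 the interaction was -0.50 (SE 0.21, p = 0.0501, limma adjusted p = 0.61).

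The sequencing location moved none of the 9 genes past the limma threshold, beside 0.659% of all genes. At an unadjusted p under 0.05 there was 1, Cdkn2c, at -0.36 for Vienna-IMP minus Nijmegen (p = 0.0291, limma adjusted p = 0.489). The FH libraries of Cdkn2a, at 0 in both locations, enter its value of 0.02 and lower it and its SE of 0.14, and in CCE alone it lay from 100.6 to 232 RPKM at Vienna-IMP and from 86.7 to 229 at Nijmegen.

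Over the 16 libraries, log2(RPKM + 1) of Cdkn2a was most closely followed by Hoxa9 (Pearson r = 0.996), Lrrn4 (0.996), Rec8 (0.995), Hoxa10 (0.994) and Ahnak2 (0.994). The libraries share tissue and kit, so r mostly reflects those groups, and no p is given. Hoxa9 and Hoxa10 code for homeobox factors and Rec8 for a meiotic cohesin. All 5 genes had few tags in FH, from 0 (Hoxa10) to 7 (Ahnak2) with RiboMinus and from 3 (Hoxa9) to 108 (Ahnak2) with Ribo-Zero, where Cdkn2a had no exon tag, and were lower in the CCE Ribo-Zero library than in any CCE RiboMinus library, as Cdkn2a was. Rec8 went from 52.8 to 68.9 RPKM in CCE with RiboMinus to 17.0 with Ribo-Zero. Of the 10 genes other than Rb1, which was under the filter, Cdkn2b (0.991, rank 11 of 10304) and Cdkn1a (0.986, rank 22) were nearest to Cdkn2a. Mdm2 (0.953) and Trp53 (0.909) followed, and Cdkn1b (-0.16) and Cdkn2c (-0.56) were farthest. The median over all genes was 0.355.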

How the data were processed

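Ribosomal RNA-depleted RNA-Seq was done on CCE cells and fetal head. The authors deposited the positions of uniquely mapped tags (mm9, Bowtie) with no expression values. The study states reads of 36 bases with up to 2 mismatches for RiboMinus and of 51 bases with up to 3 for Ribo-Zero. In the deposited positions end minus start was 35 for the Vienna-IMP files and 34 for the Nijmegen files. Each deposited line is a tag of count 1, and the deposited score column was not used. Of the samples, 8 whose files were not given are not analysed here. RiboMinus files hold no mitochondrial tags, so those of Ribo-Zero were left out.

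Tag midpoints were counted over merged exons of GENCODE M1 and expressed as RPKM. Both locations of a cDNA preparation were summed, and log2(RPKM + 1) of genes with a mean above 3 RPKM in either tissue was fitted with limma 3.58.1 (R 4.3.3), with Benjamini-Hochberg adjustment over all genes and a threshold of 0.05. Ratios of pooled tags carry exact conditional binomial intervals at 95%, densities exact Poisson intervals. Both cover counting error only. On simulated data with 200 of 9514 genes changed 4-fold between CCE and FH, the fit recovered 200 and called 20 unchanged genes. The changed genes were drawn from levels well above the filter, and the preparations were simulated as independent with no fragmentation effect. This recovery is therefore not the power of the real fit. The other tools were Python 3.11.15 with numpy 2.4.6, pandas 2.3.3, scipy 1.17.1 and numba 0.67.0.

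The genes and the pathway lists were chosen with earlier results of these data known. In each list the text may name the 3 largest differences in each direction among genes past the threshold, and it names the 5 genes most correlated with Cdkn2a. Libraries are called sheared or hydrolysed as labelled, although the extraction text of all RiboMinus samples describes hydrolysis. Preparation numbers of hydrolysed libraries may be crossed between locations: the log2 ratio of preparation 1 over 2 correlated across genes between locations at r = 0.641 for CCE sheared, -0.644 for CCE hydrolysed and -0.496 for FH hydrolysed. Alternatives covered the filter, pseudocount, scaling, repeated positions, exon parts, locations, fragmentation and each preparation left out.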

Additional observations from a re-analysis of the deposited data

Results flagged for a closer look

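Ccnd1 and Ccnd2 had opposite orders with the 2 kits. The ratio of CCE over FH was 2.231 with RiboMinus and 0.6595 with Ribo-Zero for Ccnd1, and 1.92 and 0.6605 for Ccnd2, with every CCE preparation above every FH preparation in the RiboMinus data. The first exons of Cdkn2a also changed order, with an exon 1β over exon 1α density of 0.3173 over the pooled CCE RiboMinus libraries, below 1 in 4 of 4 preparations, and 2.003 in the CCE Ribo-Zero library. These differences were not tested, since there is 1 Ribo-Zero library per tissue. Among 29 groups of 4 to 8 values, the RPKM of each of the 10 genes over the libraries of a tissue or the CCE preparations, no value stood apart by Dixon's criterion. The groups of 3 FH preparations were not examined. In that of Ccnd1, FH1 sheared was at 34.9 RPKM against 16.9 and 16.7 in the hydrolysed preparations.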

How the results depend on the processing

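Ratios of CCE over FH are on the log2 scale, and the cause of each move was not tested. With Ribo-Zero, Cdkn2b moved from 6.44 to 5.50, Cdkn1a from 4.13 to 2.81, Trp53 from 2.00 to 1.33, and Mdm2 from 3.27 to 1.69, and 4 genes turned: Cdkn1b from -0.11 to 0.64, Cdkn2c from -0.72 to 0.10, Ccnd1 from 1.16 to -0.60 and Ccnd2 from 0.94 to -0.60. With Ribo-Zero over coding exons the values were 8.44 for Cdkn2a, 5.57 for Cdkn2b, 0.18 for Cdkn2c, 2.82 for Cdkn1a, 0.71 for Cdkn1b, 1.52 for Trp53, 1.77 for Mdm2, -0.40 for Ccnd1 and -0.38 for Ccnd2. With Ribo-Zero positions counted once they were 8.11, 5.202, 0.50, 2.53, 0.93, 1.33, 1.69, 0.20 and 0.20 in that order, and 0.15 for Rb1. With Ribo-Zero scaled by exon tags they were 8.09 for Cdkn2a, 4.93 for Cdkn2b, -0.475 for Cdkn2c (again below 0), 0.06 for Cdkn1b, -0.77 for Rb1, 2.24 for Cdkn1a, 0.76 for Trp53, 1.11 for Mdm2, -1.18 for Ccnd1 and -1.17 for Ccnd2. With RiboMinus scaled by exon tags Cdkn1a was at 3.76, Cdkn1b at -0.47, Trp53 at 1.63 and Ccnd2 at 0.58. Cdkn1a was at 3.86 with positions counted once, and Cdkn2c at -1.48 over coding exons. The bound for Cdkn2a, which follows depth, was 8.43 in hydrolysed and 7.17 in sheared libraries, 8.29 at Vienna-IMP and 8.01 at Nijmegen, and 8.33 to 9.30 with each preparation left out. The exon 1β over exon 1α ratio, 0.317 with RiboMinus, was 2.00 with Ribo-Zero, 1.73 with its positions counted once, 2.11 for tags wholly inside an exon and 1.89 over single words. The Ribo-Zero gap density was 2.51 with positions counted once. The Ribo-Zero settings over coding exons, with positions once and scaled, sheared libraries alone, the fits per depleted RNA and those without FH1 hydrolysed of Vienna-IMP were chosen after seeing the data.

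With no filter 4 pathway genes were lower in CCE, and 3650 of all genes. At Vienna-IMP alone 1 pathway gene was lower, and 1 to 2 with each preparation left out, the low value without FH1 hydrolysed. Scaling by exon tags gave 2269 genes higher and 3356 lower. With fragmentation as a covariate 10 G1 genes and 5 regulators of p53 were higher. With tags summed per depleted RNA, 51 pathway genes were higher and 1 lower, among them 10 G1 genes and 5 regulators of p53. The 3 fragmentation calls became 1 with the depleted RNA as a block, 0 with the hydrolysed numbers crossed in it, 1 without FH1 hydrolysed of Vienna-IMP, 1 with positions counted once, 0 at Vienna-IMP, 1 at Nijmegen and 1 to 3 with each preparation left out.

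Title numbers 1 to 6 are shared by both tissues. Deviations of same-numbered libraries correlated from -0.617 to 0.506, so the numbers do not pair them. With the numbers as a replicate block over 12 libraries, 4123 genes were higher and 2120 lower, and without it 4315 and 2209. The block left 45 pathway genes higher and 2 lower. Crossing the hydrolysed numbers at Nijmegen gave 3312 and 1951.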
